A study of Homo sapiens with 8 samples.

Results

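The chemoattractant receptor genes FPR1, FPR2, FPR3, C5AR1, C3AR1, CXCR1, CXCR2, CXCR4, LTB4R and PTAFR were examined for 2 histone marks, H3K4me3 and H3K27ac. These 10 genes were chosen by name, out of 20090 protein-coding genes on chromosomes 1 to 22 and X. ChIP-seq, which sequences the DNA bound to nucleosomes with a given mark, was performed in HL-60, an established human promyelocytic leukemia cell line. The cells received 1 µM all-trans retinoic acid (ATRA), under which HL-60 cells differentiate towards granulocytes, or its solvent ethanol as the control, in both cases for 4 days. Each mark had 2 replicates of ATRA-treated and 2 of control cells, 8 libraries in all. Every library came from the same cell line, and nothing in the labels says that the replicates were separate cultures, so the spread between them may be technical. For each gene, the length under peaks was measured in the gene body plus 20 kb on each side, called the gene window below, and within 2 kb of the start site (TSS) of its canonical transcript. A member was called longer in ATRA where both ATRA libraries exceeded both control libraries, and shorter where both lay below. No p-value was used as a call, because 2 libraries against 2 allow no exact two-sided permutation p below 0.333.

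All of these genes encode receptors coupled to G proteins, through which neutrophils and monocytes sense a gradient of a chemical signal and move along it. The formyl peptide receptors sense peptides released by bacteria and damaged mitochondria, C5AR1 and C3AR1 sense fragments of complement, CXCR1 and CXCR2 sense CXCL8 and related chemokines, CXCR4 senses CXCL12 and holds cells in the bone marrow, and LTB4R and PTAFR sense the lipids leukotriene B4 and platelet-activating factor. H3K4me3 is concentrated at active promoters, and H3K27ac lies at active promoters and active enhancers.

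The sequences before the start sites of 5 of these genes are shown. Peaks of at least 1 mark lay over each of them in part of the libraries (LTB4R, PTAFR and C5AR1) or in all of them (CXCR2 and CXCR4). Such peaks also lay over the sequences before the starts of C3AR1, in every library, and of CXCR1, in control replicate 2, which are not printed. Each is the 250 bases upstream of a RefSeq start site, from RefSeq on GRCh38.p14, written 5′ to 3′ on the strand of the gene, and each matched 1 place in GRCh37 (hg19, the build of the peak lists) exactly. RefSeq start windows were found for 9 of the 10 genes, 13 windows in all, and FPR3 was not among them. Capitals mark matches on either strand to GAGGAA (the core of PU.1 and other ETS sites), TTGCNNAA (C/EBP), AGGTCA (the repeat unit of retinoic acid response elements) or TATAAA (the TATA box). In the CXCR4 sequence, a TATAAA match on each strand overlaps the other. The LTB4R sequence lies on the plus strand at chr14:24782063-24782312, inside an intron of the canonical transcript. The PTAFR sequence lies on the minus strand at chr1:28503202-28503451. The C5AR1 sequence lies on the plus strand at chr19:47812868-47813117. The CXCR2 sequence lies on the plus strand at chr2:218990501-218990750. The CXCR4 sequence lies on the minus strand at chr2:136875720-136875969.
LTB4R: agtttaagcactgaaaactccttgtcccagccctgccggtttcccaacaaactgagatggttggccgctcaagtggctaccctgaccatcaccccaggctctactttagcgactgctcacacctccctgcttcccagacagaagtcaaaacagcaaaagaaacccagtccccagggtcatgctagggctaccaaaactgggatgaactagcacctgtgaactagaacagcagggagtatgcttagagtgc
PTAFR: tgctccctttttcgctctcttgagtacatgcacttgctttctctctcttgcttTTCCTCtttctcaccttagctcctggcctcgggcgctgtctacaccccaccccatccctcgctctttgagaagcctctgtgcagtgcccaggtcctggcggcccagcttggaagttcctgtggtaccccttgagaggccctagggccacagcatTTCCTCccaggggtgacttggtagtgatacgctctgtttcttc
C5AR1: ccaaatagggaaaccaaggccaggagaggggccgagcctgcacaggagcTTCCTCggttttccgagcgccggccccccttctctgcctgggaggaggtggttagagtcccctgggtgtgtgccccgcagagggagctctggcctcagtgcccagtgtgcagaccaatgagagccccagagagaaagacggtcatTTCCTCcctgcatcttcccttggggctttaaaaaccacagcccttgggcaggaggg
CXCR2: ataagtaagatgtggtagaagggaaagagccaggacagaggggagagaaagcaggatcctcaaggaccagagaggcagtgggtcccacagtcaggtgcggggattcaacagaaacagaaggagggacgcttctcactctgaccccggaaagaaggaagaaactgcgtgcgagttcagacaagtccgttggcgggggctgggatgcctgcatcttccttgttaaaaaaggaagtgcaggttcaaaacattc
CXCR4: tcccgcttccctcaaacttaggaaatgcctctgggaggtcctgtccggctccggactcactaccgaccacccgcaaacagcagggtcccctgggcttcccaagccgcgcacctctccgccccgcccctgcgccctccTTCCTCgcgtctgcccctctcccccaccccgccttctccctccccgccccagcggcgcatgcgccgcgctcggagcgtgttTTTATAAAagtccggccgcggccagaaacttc

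GAGGAA was found in 4 of the 13 windows (C5AR1, PTAFR and 2 windows of CXCR4), against 23.6% of all 35116 RefSeq promoters. AGGTCA was found in 2 (C3AR1 and the upstream window of PTAFR), against 12.1%, TATAAA in 2 (C3AR1 and CXCR4), against 10.7%, and TTGCNNAA in none, against 9.05%. The printed LTB4R and CXCR2 sequences held none of these letters. The CXCR4 sequence had a GC content of 68.0% and 24 CpG dinucleotides, and the other printed sequences had between 3 and 7 CpG, beside a median of 58.0% and 11 over all promoters. These matches are descriptions of the letters and not binding sites.

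The 8 libraries differed in how much of the genome lay under peaks, and that difference bears on every value given here. For H3K27ac, the total was 64.8 and 86.1 Mb in ATRA replicates 1 and 2 and 28.8 and 54.0 Mb in control replicates 1 and 2, so control replicate 1 stood apart at the low end and all totals were larger in ATRA. For H3K4me3, it was 63.2 and 62.3 Mb in ATRA and 59.8 and 47.7 Mb in control. Read depth is not given by the peak lists, and its part in these totals was not tested. Dividing each library by its total moved the median log2 change of all genes from 0.27 to 0.00 for H3K27ac and from 0.07 to 0.00 for H3K4me3, and such scaled values are given below where they change a direction or a call. The TSS of MPO, SPI1 and CEBPE, genes of the granulocyte lineage, lay in peaks of both marks in all 8 libraries, while those of HBB, MS4A1, EPCAM and KRT18, markers of erythroid, B and epithelial cells, lay in none. The TSS of ELANE, an azurophil granule gene, lay in no peak either, and that of CD4, chosen as a T cell marker, lay in an H3K4me3 peak in all 4 libraries. The TSS of ITGAM, which encodes CD11b and marks granulocytic differentiation, lay in peaks of both marks in the ATRA libraries only. Of 2 monocyte markers, CD14 had its TSS in no peak, and CSF1R had it in H3K4me3 peaks of the ATRA libraries only and in H3K27ac peaks of replicate 2 of both treatments, and their part in the results was not tested.

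Between the members, H3K27ac was spread very unevenly. It was longer in both ATRA libraries than in both control libraries in the windows of 4 members, LTB4R, PTAFR, C5AR1 and CXCR2, and shorter in none, against 33.7% and 2.97% of all protein-coding genes. A share of 4 in 10 is close to that background, so the count alone sets the members apart from no other genes. H3K4me3 was longer in ATRA in 3 windows, LTB4R, CXCR2 and CXCR4, and shorter in none, against 30.1% and 2.46% of all genes. After scaling by the library total, only LTB4R was longer for H3K27ac and C3AR1 and CXCR4 were shorter, against 14.1% and 19.3% of all genes, and only CXCR2 was longer for H3K4me3 and C5AR1 and C3AR1 were shorter, against 11.6% and 18.5%.

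**Figure D1:**
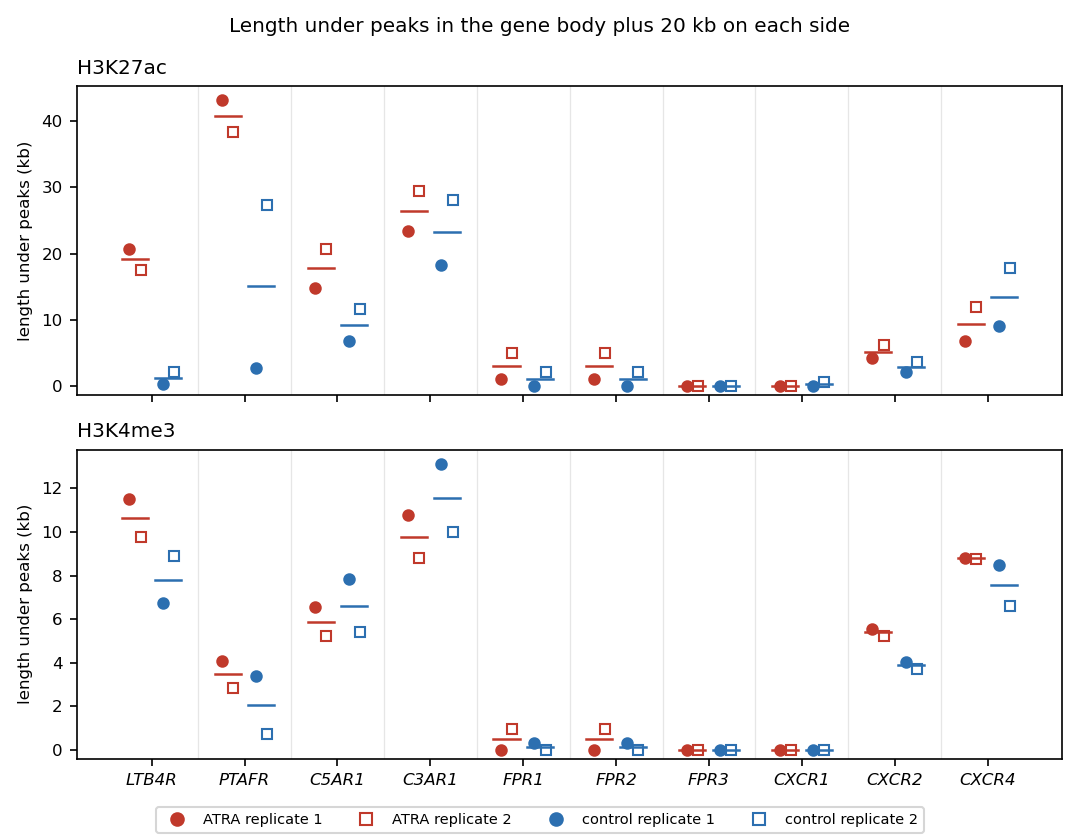
Length under peaks (kb) in the gene body plus 20 kb on each side of each receptor gene, for H3K27ac (top) and H3K4me3 (bottom). Each point is 1 library (red ATRA, blue control; circles replicate 1, squares replicate 2) and each line the mean of 2 replicates. LTB4R shows the widest separation for H3K27ac, with 20728 and 17616 bp in ATRA and 375 and 2092 bp in control.

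LTB4R, the high-affinity receptor for leukotriene B4, had the largest log2 change in H3K27ac of the members. Its window held 20728 and 17616 bp under H3K27ac peaks in ATRA replicates 1 and 2, and 375 and 2092 bp in control replicates 1 and 2. Both ATRA libraries were far above both control libraries, and the log2 change was 3.17, which 0.702% of all genes exceeded. Leaving out each library in turn gave 2.71 to 3.87, and scaling by the library total gave 2.70 with the groups still apart. The size of the change depended on the setting. It was 1.17 with 50 kb flanks, 1.19 by the number of peaks and 4.28 with peaks shared by both replicates, with the groups apart in each. The gene record itself (chr14:24780656-24787242) held H3K27ac in ATRA only, with 5230 and 3650 bp of the canonical transcript under peaks against 0 bp in both control libraries. More of the window's H3K27ac lay over its neighbor ADCY4, with 8730 and 9922 bp in ATRA and 0 and 1744 bp in control.

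No base of the LTB4R window lay under H3K27ac in all 4 libraries, and 10566 bp lay under it in both ATRA libraries and in neither control. The stretch nearest the gene start covered 3292 bp at chr14:24781220-24784511, from 512 to 3803 bp downstream of the canonical TSS, over an intron of LTB4R and the last 25 bp of LTB4R2. The printed LTB4R sequence lies within it. The 300 bp around that RefSeq start, which is 1605 bp downstream of the canonical TSS, were entirely under H3K27ac peaks in both ATRA libraries and had 0 bp under them in both control libraries. The longest such stretch, 3475 bp at chr14:24792979-24796453, lay 12271 to 15745 bp downstream, within ADCY4, which encodes an adenylate cyclase.

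The H3K27ac peaks of the LTB4R window differed in strength between the ATRA libraries. The best deposited −log10 q in the window was 21.8 in ATRA replicate 1, 2.93 in ATRA replicate 2, 1.06 in control replicate 1 and 2.84 in control replicate 2. Only ATRA replicate 1 kept peaks with a −log10 q of at least 5, with 19787 bp against 0 bp in the other 3 libraries, so at that threshold the groups overlapped. The canonical TSS base lay in an H3K27ac peak in ATRA replicate 1 alone. In the 2 kb on each side of it, 4001 and 1489 bp lay under peaks in ATRA and 0 bp in both control libraries.

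H3K4me3 at LTB4R was mostly that of its neighbors. The window held 11526 and 9752 bp in ATRA and 6723 and 8907 bp in control, with a log2 change of 0.40 and groups that did not overlap. After scaling, the log2 change was 0.16 and the groups overlapped, because control replicate 2 then exceeded ATRA replicate 1. Of this length, 5887 bp lay under peaks in all 4 libraries at chr14:24766460-24772346, more than 8 kb upstream, over the start sites of DHRS1 and NOP9. Within the canonical transcript of LTB4R, ATRA replicate 1 alone had H3K4me3 (2518 bp), and no library had any within 2 kb of the TSS.

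PTAFR, the receptor for platelet-activating factor, had the most H3K27ac of the members in ATRA. Its window (86771 bp, since the gene record is long) held 43156 and 38425 bp in ATRA and 2816 and 27342 bp in control. Both ATRA libraries exceeded both control libraries, but the controls differed widely from each other. The log2 change was 1.38, and it was 0.56 without control replicate 1 and 3.45 without control replicate 2. Control replicate 1 was also the library with the shortest total, and after scaling the groups overlapped (log2 change 0.84).

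Within the PTAFR window, 6531 bp lay under H3K27ac in both ATRA and no control library, 0 bp in both control and no ATRA library, and 1870 bp in all 4. The longest ATRA stretch, 2283 bp at chr1:28485832-28488114, lay in an intron 15087 to 17369 bp downstream of the TSS. Within 2 kb of the TSS, 3443 and 4001 bp lay under H3K27ac in ATRA and 554 and 3384 bp in control. H3K4me3 lay mostly close to the start, with 4084 and 2839 bp in ATRA and 3395 and 717 bp in control in the window, of which 2705 and 2204 bp and 2255 and 717 bp lay within 2 kb of the TSS. Its groups overlapped, and the log2 change of 0.55 was 1.38 without control replicate 1 and 0.0217 without control replicate 2. The 717 bp shared by all 4 libraries began 246 bp downstream of the TSS. The TSS base lay in an H3K4me3 peak in 3 libraries and not in control replicate 2.

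**Figure D2:**
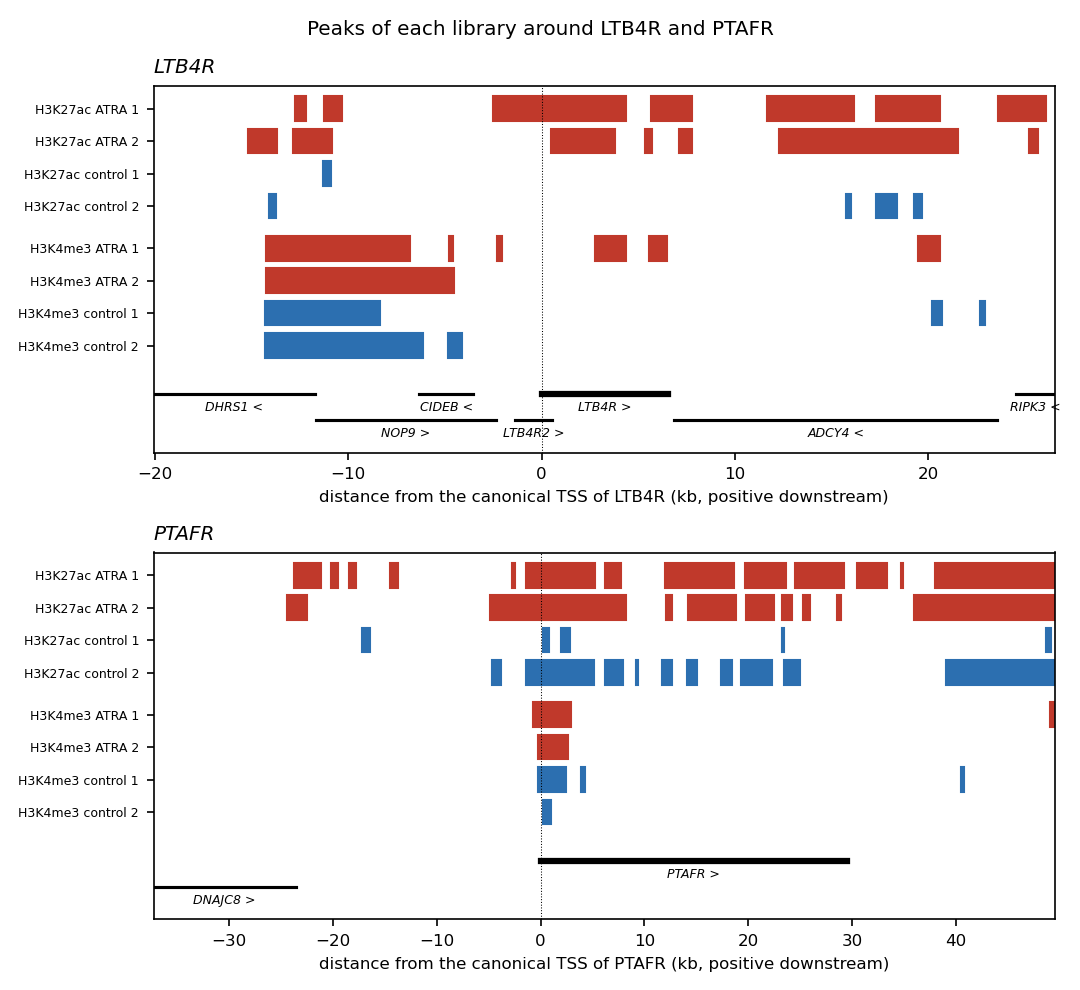
Peaks of the 8 libraries around LTB4R and PTAFR (bars, red ATRA and blue control), by distance from the canonical TSS in kb, with canonical transcripts below (arrowheads give the strand). At LTB4R the H3K27ac bars over the gene are all red, and the H3K4me3 bars shared by the 4 libraries lie over DHRS1 and NOP9.

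C5AR1, the main receptor for the complement fragment C5a, had more H3K27ac in ATRA around the gene but not at its start. The window held 14851 and 20772 bp in ATRA and 6812 and 11617 bp in control, and the groups did not overlap. The log2 change was 0.88, with 0.58 without control replicate 1 and 1.27 without control replicate 2, while scaling by the library total brought it to 0.05 with overlapping groups. A length of 3100 bp lay under H3K27ac in both ATRA and no control library and 4517 bp in all 4. The longest piece of that ATRA length, 968 bp, was in an intron of C5AR2, the other C5a receptor, from 22678 to 23645 bp downstream of the C5AR1 start.

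At the start of C5AR1, the order of the libraries did not follow the treatment. Within 2 kb of the TSS, 0 and 2810 bp lay under H3K27ac in ATRA and 969 and 2091 bp in control, and the TSS base lay in a peak in both replicate 2 libraries only. H3K4me3 within 2 kb was 207 bp in control replicate 1 and 0 bp in the other 3 libraries. In the window, H3K4me3 was 6571 and 5206 bp in ATRA and 7848 and 5396 bp in control, overlapping, with a log2 change of −0.15. Apart from those 207 bp, this H3K4me3 lay 33 kb or more upstream, by CCDC9 and INAFM1, or within C5AR2. After scaling, both ATRA libraries lay below both controls (log2 change −0.33).

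C3AR1, the receptor for C3a, carried both marks at its start in all 8 libraries. H3K27ac in the window was 23443 and 29411 bp in ATRA and 18265 and 28172 bp in control, and the groups overlapped (log2 change 0.18), whereas after scaling both ATRA libraries lay below both controls (−0.69). A run of 10446 bp at chr12:8203176-8213621 lay under H3K27ac in all 4 libraries, over the coding exon of C3AR1 and the end of FOXJ2. Within 2 kb of the TSS, H3K27ac was 4001 bp in both ATRA libraries and 2343 and 3628 bp in control. H3K4me3 was 10759 and 8818 bp in ATRA and 13129 and 10008 bp in control (log2 change −0.22, overlapping, and −0.42 without overlap after scaling). Around the TSS, 3504 bp lay under H3K4me3 in all 4 libraries.

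The formyl peptide receptor genes had few or no peaks. The windows of FPR1 and FPR2 overlap over 58506 bp and held the same peaks, so their values are 1 observation. Under H3K27ac lay 1036 and 5000 bp in ATRA and 0 and 2103 bp in control, and the groups overlapped. The log2 change of 0.97 rested on single libraries, with −0.0109 without ATRA replicate 2, 1.55 without ATRA replicate 1, 0.37 without control replicate 1 and 2.01 without control replicate 2. The only bases shared by both ATRA libraries and no control came to 402 bp, of which 279 bp were 10567 to 10845 bp downstream of the FPR2 start. Counting peaks with a −log10 q of at least 5 only, control replicate 2 alone kept its 2103 bp.

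No canonical start site of the formyl peptide receptor genes lay in a peak of either mark in any library. Near the FPR1 start (2 kb on each side), 456 bp lay under H3K27ac in ATRA replicate 2 and 0 bp in the other 3 libraries. H3K4me3 in the FPR1 and FPR2 windows was 0 and 964 bp in ATRA and 294 and 0 bp in control. FPR3, which is mainly known from monocytes and macrophages, had 0 bp under peaks of either mark in all 8 libraries.

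CXCR1 and CXCR2, receptors for CXCL8 whose starts are 40934 bp apart on chromosome 2 and whose windows overlap over 14411 bp, differed from each other in every library. CXCR1 had no H3K4me3 peak in its window, and its H3K27ac was 0 and 97 bp in ATRA and 0 and 592 bp in control, with the start under a peak in control replicate 2 alone. CXCR2 had both marks at its start in all 8 libraries. Its window held 4290 and 6152 bp of H3K27ac in ATRA and 2085 and 3646 bp in control. The groups did not overlap, with a log2 change of 0.69 (0.42 without control replicate 1 and 1.01 without control replicate 2), but after scaling it was −0.02, the reverse direction, with overlapping groups.

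H3K4me3 at CXCR2 formed 1 peak per library. Its length was 5568 and 5244 bp in ATRA and 4031 and 3712 bp in control, longer in both ATRA libraries, and the log2 change was 0.40 (0.35 to 0.44 when each library was left out). CXCR2 was the only member whose H3K4me3 stayed longer after scaling, with a log2 change of 0.20. All 4 libraries shared 3712 bp, from 798 bp upstream to 2913 bp downstream of the TSS, which hold the printed CXCR2 sequence. The ATRA libraries reached further at both ends, by a shared 599 bp upstream (218989060 to 218989658 on chromosome 2) and a shared 377 bp downstream. CXCR2 was also the only member called longer for H3K4me3 within 2 kb of the TSS (3692 and 3929 bp against 3093 and 2799 bp), against 11.2% of all genes, and no member was called shorter there, against 2.28%. After scaling, no member was called longer there, against 3.36% of all genes, and C3AR1 and CXCR4 were called shorter, against 35.1%. The call at CXCR4 follows from the library totals alone, since its 4001 bp were fully covered in each library.

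CXCR4 was the only member called shorter for H3K27ac at its start. Near the TSS (2 kb on each side), 2651 and 2921 bp lay under H3K27ac peaks in ATRA and 3220 and 3675 bp in control, so both ATRA libraries lay below both controls. This 1 member called shorter stands against 2.42% of all genes, while LTB4R, PTAFR, C3AR1 and CXCR2 were called longer there, against 18.1%. After scaling, C5AR1, C3AR1 and CXCR2 joined CXCR4 among those called shorter at the TSS, against 19.8% of all genes, and LTB4R alone was longer, against 5.77%. The scaled calls at C3AR1 and CXCR2 are limited by the size of the region. All 4001 bp were covered at C3AR1 in both ATRA libraries and at CXCR2 in ATRA replicate 2, so these lengths could not rise with the library total. Within 500 bp of the TSS, no member was called in either direction for H3K27ac, against 9.25% of all genes longer and 1.75% shorter, or for H3K4me3, against 1.19% and 0.617%. With the starts of every transcript in place of the canonical TSS, CXCR4 was no longer called shorter for H3K27ac, and CXCR2 no longer called longer. C3AR1, LTB4R and PTAFR stayed longer there, against 21.5% of all genes longer and 2.58% shorter.

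In the whole CXCR4 window, H3K27ac was 6860 and 11949 bp in ATRA and 9153 and 17791 bp in control. The groups overlapped, with a log2 change of −0.48 that became 0.0353 without control replicate 2, whereas after scaling it was −1.29 and the groups did not overlap. All 4 libraries shared 6104 bp, 2077 bp lay under peaks in both controls and no ATRA library, and 250 bp in both ATRA libraries and no control. The control stretches lay from 946 to 1490 bp upstream of the TSS (545 bp, chr2:136876665-136877209) and in 2 pieces of 1023 and 509 bp between 14288 and 16019 bp upstream, where no gene is annotated. Peaks with a −log10 q of at least 5 were found in control replicate 2 alone (14212 bp), whose best value was 15.2 against 2.71, 3.49 and 3.98 in ATRA replicates 1 and 2 and control replicate 1.

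H3K4me3 covered the whole of the CXCR4 transcript in every library. The single peak of each library was 8788 and 8781 bp long in ATRA and 8496 and 6624 bp in control, and 6624 bp were common to all 4, from 2682 bp upstream to 3941 bp downstream of the TSS. The log2 change of 0.19 came with groups that did not overlap, but was 0.0432 without control replicate 2 and −0.00309, with overlapping groups, after scaling. All 4001 bp within 2 kb of the TSS were under H3K4me3 in each library, the printed CpG-rich sequence included.

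**Figure D3:**
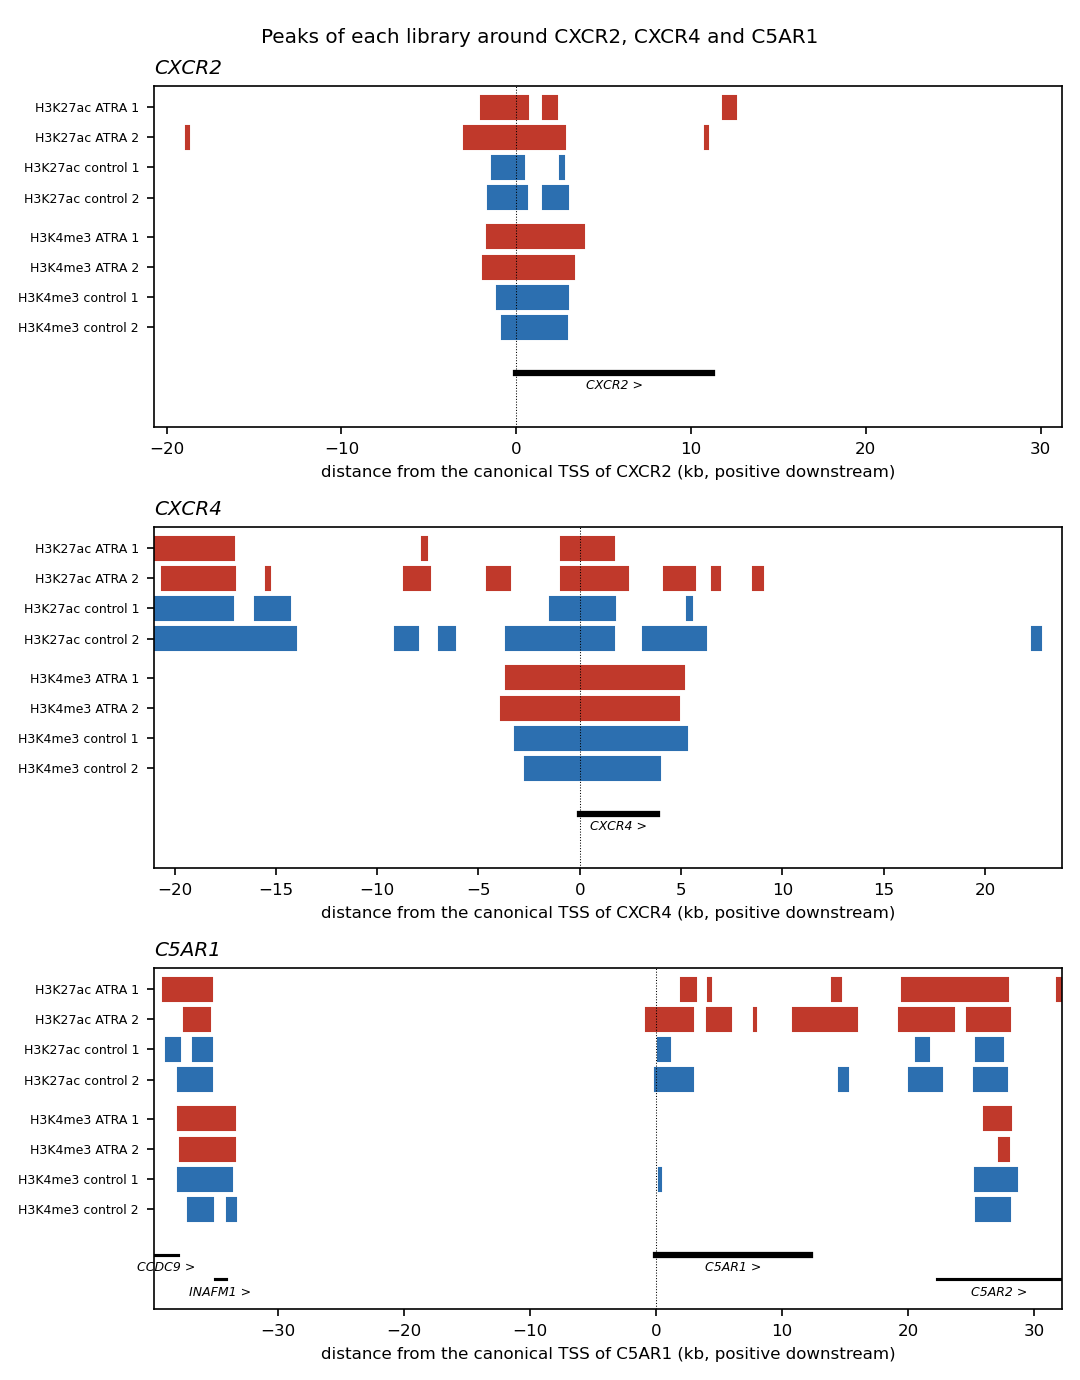
Peaks of the 8 libraries around CXCR2, CXCR4 and C5AR1 (bars, red ATRA and blue control), by distance from the canonical TSS in kb, with canonical transcripts below. The H3K4me3 bar at CXCR2 is longer at both ends in ATRA, CXCR4 has bars of both marks at its TSS in every library, and C5AR1 has 1 short H3K4me3 bar at its own TSS, in control replicate 1.

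The starts of the members were also compared by whether the TSS base itself lay in a peak. CXCR4, CXCR2 and C3AR1 had the TSS base in peaks of both marks in all 4 libraries of each mark, 3 of 10 members, against 19.5% of all genes in all 4 libraries for H3K27ac and 50.4% for H3K4me3. FPR1, FPR2 and FPR3 had it in no library for H3K27ac, against 56.5% of all genes. For H3K4me3, 6 of 10 members had it in no library (these 3, CXCR1, C5AR1 and LTB4R), against 45.7%. No member had its TSS base in a peak in both ATRA libraries and no control library, for either mark, and few genes did (3.03% of all genes for H3K27ac and 0.259% for H3K4me3).

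**Figure D4:**
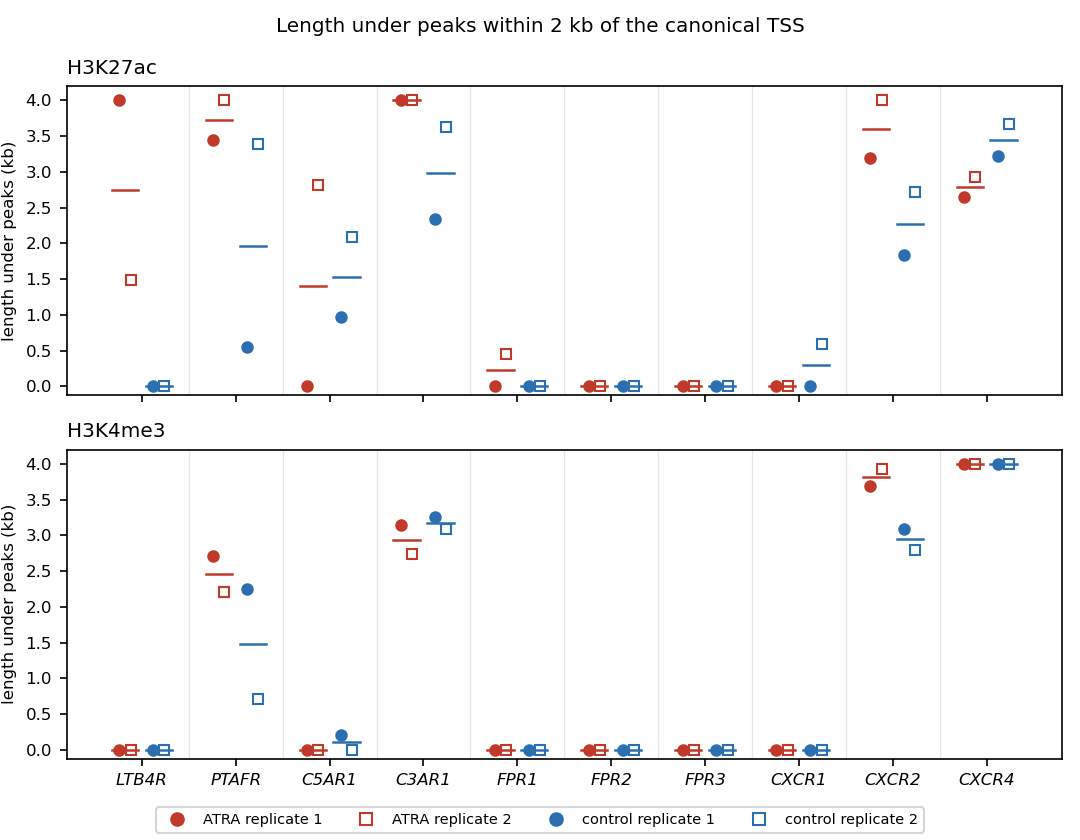
Length under peaks (kb) within 2 kb of the canonical TSS of each receptor gene, for H3K27ac (top) and H3K4me3 (bottom). Points are libraries (red ATRA, blue control; circles replicate 1, squares replicate 2), lines are means of 2 replicates, and 4 kb means the whole region is covered. CXCR4 is fully covered by H3K4me3 in each library, and LTB4R has H3K27ac in the ATRA libraries only.

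The median log2 change of the 10 members in gene windows was 0.78 for H3K27ac, beside 0.27 over all genes and 0.49 over the 15477 genes with a peak in at least 1 library. It ran from −0.48 at CXCR4 to 3.17 at LTB4R. For H3K4me3, the median was 0.28, beside 0.07 over all genes and 0.16 over the 14609 genes with a peak, and it ran from −0.22 at C3AR1 to 0.55 at PTAFR. FPR1 and FPR2 share their peaks and count as separate members in both medians. After scaling, the medians of the members were 0.0267 and 0.08.

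**Figure D5:**
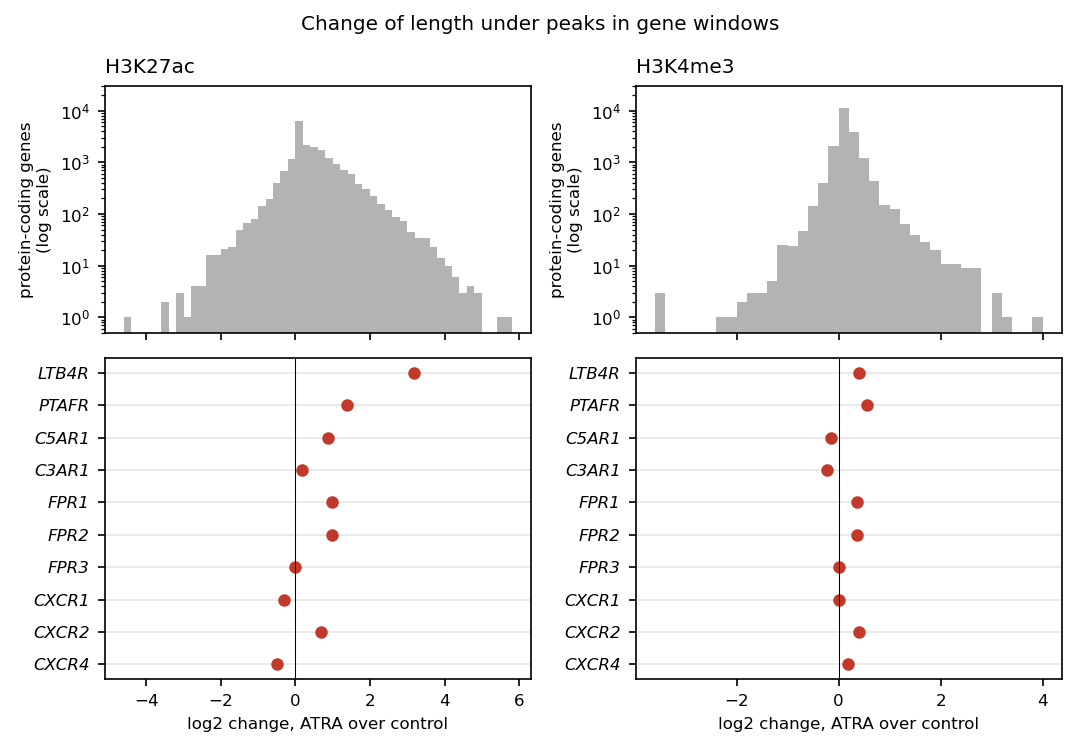
Log2 change of the length under peaks in gene windows, ATRA over control, for H3K27ac (left) and H3K4me3 (right). The upper panels count all 20090 protein-coding genes in steps of 0.2 (log scale), and the lower panels place each receptor gene on the same axis, with LTB4R at 3.17 for H3K27ac.

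Other receptors for chemical signals on leukocytes were examined from a list of 20 genes. For H3K27ac, 13 were longer in both ATRA libraries, 0 were shorter and 7 overlapped, beside 33.7% longer and 2.97% shorter over all genes, and the median log2 change was 1.27 beside 0.27. After scaling, 10 were longer and 2 shorter, beside 14.1% and 19.3% (median 0.59). The largest changes were at LTB4R2, the low-affinity leukotriene B4 receptor, whose window overlaps that of LTB4R (log2 change 3.05), and at FFAR2, a receptor for short-chain fatty acids (35731 and 30126 bp in ATRA and 234 and 11052 bp in control, 2.35). For H3K4me3, 8 were longer, 2 were shorter and 10 overlapped, beside 30.1% and 2.46% over all genes, with a median of 0.05 beside 0.07, and after scaling 6 were longer and 4 shorter, beside 11.6% and 18.5% (median 0.00). The chemokine receptor genes CCR3 (8473 and 8996 bp in ATRA and 2220 and 1475 bp in control, 1.77) and CCR1 (6276 and 6159 bp against 2188 and 1475 bp, 1.35) had the largest changes, and they are neighbors on chromosome 3. Their equal 1475 bp in control replicate 2 may be the same peaks, so these may not be separate results. CCR2 and CCRL2, on the same chromosome, were like them called longer for both marks before scaling. After scaling, CCRL2 was called shorter for H3K27ac, its log2 change turning from 0.43 to −0.32. The 2 that were shorter were C5AR2, whose window overlaps that of C5AR1 (−0.42), and P2RY2, a receptor for extracellular nucleotides (−0.24). The 13 longer for H3K27ac include C5AR2, LTB4R2, CCR1, CCR2, CCR3 and CCRL2, so they may not all be separate results.

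Among 27 genes of the signaling steps below these receptors, 18 were longer for H3K27ac, 1 was shorter and 8 overlapped, beside 33.7% longer and 2.97% shorter over all genes, and the median log2 change was 0.81 beside 0.27. After scaling, 10 were longer and 5 shorter, beside 14.1% and 19.3%, with a median on the other side of 0 (−0.04). GNG2, which encodes a G protein gamma subunit, had 36775 and 42646 bp in ATRA and 1860 and 4168 bp in control (3.34). PIK3R5, a regulatory subunit of the phosphoinositide 3-kinase that G proteins activate, had 7537 and 14004 bp in ATRA and 0 and 4410 bp in control (1.88). GNA15, a G protein alpha subunit, was the shorter one, with 14167 and 15329 bp in ATRA and 17610 and 17750 bp in control (−0.25). For H3K4me3, 13 were longer, 0 were shorter and 14 overlapped, beside 30.1% and 2.46% over all genes, with a median of 0.19 beside 0.07, and after scaling 9 were longer and 6 shorter, beside 11.6% and 18.5% (median 0.00). The largest H3K4me3 changes were at RGS1, which speeds the switching off of G proteins (4792 and 4243 bp against 682 and 399 bp, 1.84), and P2RY14, a receptor for UDP-sugars (3403 and 856 bp against 443 and 0 bp, 1.36). Except for CCRL2 in H3K27ac, the genes named from both lists kept their direction and call after scaling, for the mark they are named for.

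The genes whose windows were most like those of 4 members were found by the Euclidean distance of log2(length + 1000 bp) over the 8 libraries. The nearest to CXCR4 were DUSP10 (distance 0.444), RPN1 (0.498) and LLPH (0.659), and those near CXCR2 included TRPM1 (0.516) and SKA1 (0.556). The nearest to C5AR1 were ENSG00000288678 (0.462), DDX28 (0.463) and SNX30 (0.477). The nearest to FPR1 were TLR2 and RNF175, whose windows hold the same peaks (0.545), and MBD3L2B (0.757). For DUSP10, H3K27ac was 7283 and 11980 bp in ATRA and 11526 and 16914 bp in control, overlapping between the groups as at CXCR4.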

How the data were processed

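H3K4me3 and H3K27ac ChIP-seq libraries of HL-60 cells were used as deposited peak lists, 1 per library. The authors removed adapters, mapped the reads to hg19 using Bowtie and ran MACS2 in broad mode on every library, and the submitters' processing notes also list cutadapt. The peak positions and the deposited −log10 q of each peak were used, the latter only as a filter. The deposited fold and −log10 p were left out, since they hold impossible values, and whether the −log10 q in the same lists is free of that fault was not tested. Depth is unknown, so precision rests on 2 replicates per condition and mark.

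Genes and canonical TSS came from GENCODE release 44 on GRCh37. Overlapping peaks were merged, and log2 change was log2((mean ATRA length + 1000 bp)/(mean control length + 1000 bp)). Named genes were all members, neighbors in their windows, the 2 largest changes in each direction per mark of each list among genes whose groups did not overlap, and the 3 genes nearest to FPR1, C5AR1, CXCR2 and CXCR4. 1 item that this rule covers is not reported here. Members, lists and rules were chosen with earlier results of these data known. Alternatives were gene body alone, 50 kb flanks, −log10 q of at least 5, peaks of at least 1 kb, peaks shared by replicates, peak numbers, scaling by library total, other TSS definitions, a pseudocount of 100 bp, the replicate block and leaving out each library. A window from the canonical transcript was added after seeing the data. Python 3.11.15, numpy 2.4.6 and pandas 2.3.3 were used.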

Additional observations from a re-analysis of the deposited data

How the results depend on the processing

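For H3K27ac, the 4 members called longer in gene windows became 2 in the gene body alone (LTB4R and PTAFR), against 23.6% of all genes. The count was 0 with a −log10 q of at least 5, against 4.23%, and 1 after scaling by the library total (LTB4R), against 14.1%. It was 7 with the replicate block, against 48.2%, and 4 to 7 when each library was left out, against 36.7% to 55.5%. The 7 were reached without ATRA replicate 1 (55.5% of all genes) and without control replicate 2 (53.7%), by the addition of FPR1, FPR2 and C3AR1. CXCR4 was called shorter with the replicate block (−0.45), with peaks shared by both replicates, without ATRA replicate 2 and without control replicate 1, and CXCR1 in the last of these. In that order, 6.1%, 4.75%, 8.68% and 14.6% of all genes were called shorter. The H3K27ac median of 0.78 became 0.0 with a −log10 q of at least 5 and 0.0267 after scaling, and 0.00666 (without ATRA replicate 2) to 1.14 when each library was left out. The 4 called longer at the TSS became 0 with a −log10 q of at least 5, against 1.12% of all genes. They became 1 after scaling, against 5.77%, and 0 within 500 bp, against 9.25%. When each library was left out, 4 to 6 were called longer, against 21.9% to 32.9%. For H3K4me3, the 3 members called longer in windows became 1 in the gene body alone (CXCR2), against 23.5% of all genes. They became 0 by the number of peaks, against 4.8%, and 1 after scaling, against 11.6%. When each library was left out, 3 to 5 were called longer, against 31.6% to 59.2%. C5AR1 and C3AR1 were called shorter with the replicate block (4.51% of all genes), without ATRA replicate 1 (6.49%) and without control replicate 2 (20.8%). The 1 at the TSS (CXCR2) became 0 after scaling, against 3.36% of all genes, and 0 within 500 bp, against 1.19%. It became 2 with the replicate block (PTAFR added), against 15.2%, and 1 to 2 when each library was left out, against 12.7% to 30.2%. C3AR1 was called shorter there with the block (4.03% of all genes), without ATRA replicate 1 (7.15%) and, together with C5AR1, without control replicate 2 (12.2%). The H3K4me3 median was between 0.0 and 0.3 when each library was left out. The CXCR2 change in H3K27ac reversed to −0.02 and the CXCR4 change in H3K4me3 to −0.00309 after scaling. The causes were not tested. In the replicate block, libraries were compared within replicate numbers. The deviations of same-numbered libraries correlated at 0.504 for H3K27ac and 0.256 for H3K4me3, and same-numbered libraries share a tag in the peak names, but the labels do not say that a number marks a pair, and with 2 pairs they were taken to share only a number. With the canonical transcript window, an alternative chosen after seeing the data, C5AR1 was called shorter for H3K4me3 (−0.74), and its distant neighbor peaks fell outside the window. Unknown depth and 2 replicates limit all of these values.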
